A study of Mus musculus with 18 samples.

Results

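The late cornified envelope genes of the Lce1 family, *Lce1a1*, *Lce1b*, *Lce1c*, *Lce1d*, *Lce1e*, *Lce1f*, *Lce1g*, *Lce1h* and *Lce1i*, were followed together with *Crct1* in cultured and transplanted mouse fibroblasts. The 10 genes were listed by name and matched to the Ensembl rows of the count table, where 9 of them were found among 38924 genes. *Lce1d* was not matched and was not analysed here. The genes were chosen by their counts in these same libraries, which were higher in cultured than in transplanted cells, so this difference is given below as a description without a test. Of the 9 matched genes, 4 had any count (*Lce1g*, *Crct1*, *Lce1h* and *Lce1f*), and *Lce1a1*, *Lce1b*, *Lce1c*, *Lce1e* and *Lce1i* were at 0 in all 18 libraries. The libraries therefore hold RNA of a few late cornified envelope genes in culture, and not of the family as a whole.

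The cornified envelope is the layer of crosslinked protein that replaces the plasma membrane of keratinocytes at the end of their differentiation, and it is a part of the skin barrier. Transglutaminases join its proteins, first the scaffold protein involucrin, then loricrin and the small proline-rich (Sprr) proteins, and last the late cornified envelope proteins, which are small and rich in glycine, serine, cysteine and proline. The genes for these proteins lie side by side in the epidermal differentiation complex on mouse chromosome 3. *Crct1* encodes a small cysteine-rich protein and lies in the same complex without being a member of the Lce1 family.

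RNA was sequenced from adult heart (HF), kidney (KF) and tail (TF) fibroblasts to ask how the cells of each organ differ in culture and after a move under the kidney capsule. All cells came from male *Rosa mT/mG* mice of C57BL/6 background, 10 weeks old, whose cells carry the red membrane protein TdTomato, and all had been cultured for 10 days. They were then either placed for 3 days under the kidney capsule of C57BL/6J mice aged 10 to 11 weeks and recovered as live CD45−;TdTomato+ cells (HFs, KFs and TFs), or replated for 3 more days of culture (HFc, KFc and TFc). There were 3 libraries in each of the 6 groups, which the study describes as biological replicates. The labels do not tie them to separate donors, so p-values measure the spread between these libraries, which may not include that between donors. The CD45 gate after recovery applies to the transplanted cells. The isolation is said to follow that of the study's other fibroblasts, which were sorted as CD90+, CD45− and CD31−, and it is not stated whether the starting cells of both arms passed that sort. Fewer cells of a type and less RNA per cell cannot be told apart in such bulk samples.

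The total count of a library ranged from 17927838 to 32245168. Levels are given as CPM, the count scaled to the library total, and a count of 3, here called the floor, equals 0.093 to 0.167 CPM and covers counting error only. The fibroblast markers *Col1a1*, *Col1a2* and *Vim* were abundant in every library, but not all markers of that list were. *Lum* had 5, 14 and 16 counts in HFc and 6, 1 and 3 in KFc, and *Dcn* had 12.5 to 14.2 CPM in KFc. The library labelled KFs replicate 3 went against the male label, with 1716 CPM of *Xist* and 0.83 CPM of Y-linked genes, whereas the other 17 libraries had at most 0.396 CPM of *Xist*. All listed genes were at 0 in this library, and results that rest on it are also given without it.

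The listed genes span the region from 92646535 to 93015687 on chromosome 3 of GRCm38. *Lce1g*, the gene with most counts, lies on the minus strand from 92750148 to 92752338 and has 2 exons of 925 bases in all. *Lce1h* (92763215 to 92765065) and *Lce1i* (92777210 to 92778899) are its next neighbours, also on the minus strand with 2 exons each. *Crct1* lies on the minus strand from 93014205 to 93015687, and no other annotated gene overlaps a listed gene.

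Upstream sequences are shown for these 3 neighbouring Lce1 genes because they are much alike while their counts are not, being 713 for *Lce1g*, 49 for *Lce1h* and 0 for *Lce1i* over the 18 libraries. The 250 bases before each RefSeq start site are given 5′ to 3′ on the gene's strand (GRCm38.p6, chr3:92752339-92752588 for *Lce1g*, chr3:92765066-92765315 for *Lce1h* and chr3:92778900-92779149 for *Lce1i*, minus strand). Capitals mark matches to the motifs searched, which here are ATAAAA and, in *Lce1h*, the reverse strand of CACCC.
Lce1g: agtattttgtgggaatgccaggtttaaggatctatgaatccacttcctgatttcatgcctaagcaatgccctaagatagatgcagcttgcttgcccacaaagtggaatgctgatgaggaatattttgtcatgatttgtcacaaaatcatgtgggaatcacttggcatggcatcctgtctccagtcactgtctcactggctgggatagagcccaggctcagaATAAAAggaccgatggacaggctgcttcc
Lce1h: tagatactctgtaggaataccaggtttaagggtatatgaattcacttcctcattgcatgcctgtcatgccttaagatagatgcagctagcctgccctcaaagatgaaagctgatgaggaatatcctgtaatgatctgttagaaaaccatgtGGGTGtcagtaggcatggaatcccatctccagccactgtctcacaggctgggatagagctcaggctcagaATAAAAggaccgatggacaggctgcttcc
Lce1i: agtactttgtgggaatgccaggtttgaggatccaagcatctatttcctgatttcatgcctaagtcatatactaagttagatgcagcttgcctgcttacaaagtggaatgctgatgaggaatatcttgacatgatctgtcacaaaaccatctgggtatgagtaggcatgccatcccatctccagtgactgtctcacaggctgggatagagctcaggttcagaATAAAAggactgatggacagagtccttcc

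Over these 250 bases *Lce1g* was 84.5% identical to *Lce1h*, and 85.6% identical to *Lce1i*, which had no count. *Lce1h* and *Lce1i* were 81.4% identical to each other. RefSeq windows from 250 bases before to 50 after the start site were held for 7 listed genes (*Lce1a1*, *Lce1b*, *Lce1c*, *Lce1e*, *Lce1g*, *Lce1h* and *Lce1i*) and searched on both strands. None of the 7 held TGANTCA, the motif of AP-1, or TGACNNNGC, the response element of Nrf2, which stood in 7.9% and 12.5% of 27025 promoters. GCGTG, the core bound by the aryl hydrocarbon receptor, was found in 1 of 7, against 32.5% of all promoters, and CACCC, a core of Klf sites, in 4 of 7, against 56.7%. The TATA box TATAAA was found in none of the 7 and in 14.2% of promoters. ATAAAA, which was added after the sequences had been seen and can overlap a TATA box, stood in 6 of 7 and in 19.1% of promoters, and in all 6 it began 29 bases before the start site. A match is a run of letters and not a site, and a missing match says nothing on the factor.

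Since the Lce1 genes are copies of one another, the reads that could not be placed were checked next. Their coding sequences had between 414 and 450 bases and were up to 95.7% identical (*Lce1c* and *Lce1f*), while *Crct1*, with 309 coding bases, was at most 52.4% identical to any of them. Of the windows of 75 bases, the length of a read, 4.94% in *Lce1g* and 5.22% in *Lce1h* were also found in another gene, and 0% in *Crct1*. Most shared windows of *Lce1g* came from 1 run of 113 bases at the end of its coding sequence (chr3:92750580-92750692, minus strand, coding bases 308 to 420), which is identical in *Lce1e* (chr3:92707607-92707719, minus strand, coding bases 320 to 432). The run is given here because reads inside it cannot tell the 2 genes apart.
Lce1g and Lce1e: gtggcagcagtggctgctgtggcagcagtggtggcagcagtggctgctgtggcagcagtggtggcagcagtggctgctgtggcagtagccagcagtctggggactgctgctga

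*Lce1e* itself was listed at 0 throughout, and 13.5% of its windows were shared. The counts of single Lce1 genes remain uncertain to the extent of such shared stretches, and the sum over the Lce1 genes is given beside them.

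**Figure D1:**
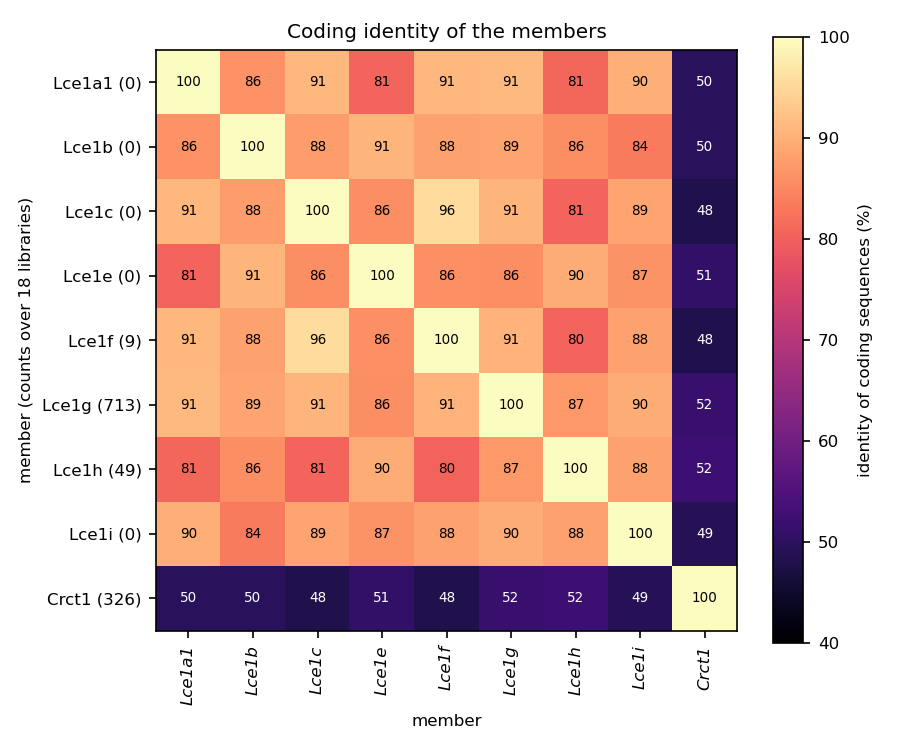
Percent identity of the coding sequences for each pair of the 9 matched genes, with each gene's counts over 18 libraries in brackets on the vertical axis. Genes of the Lce1 family were alike whether they had counts (*Lce1g* 713, *Lce1h* 49) or none (*Lce1i* 0), and *Crct1* (326) stood apart in sequence.

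Summed over the 9 genes, the 9 cultured libraries held 1094 of 244882495 counts and the 9 transplanted libraries 3 of 211319146. In culture the sum was 128, 117 and 82 counts in HFc, 260, 201 and 207 in KFc, and 48, 27 and 24 in TFc. Scaled to the library total, this was 3.98 ± 0.387 CPM (SD, n = 3) in HFc, 7.92 ± 1.57 in KFc and 1.24 ± 0.216 in TFc, and the ranges of the 3 cultured groups did not overlap. After transplantation the sum was 0 in every HFs and TFs library and 1, 2 and 0 counts in KFs. The level in every culture was low beside that of usual fibroblast genes, but above the floor in all 9 cultured libraries and in none of the transplanted ones.

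The sums were made up of different genes. Over the Lce1 genes alone, without *Crct1*, the level was 0.467 ± 0.351 CPM (SD, n = 3) in HFc, 7.62 ± 1.56 in KFc and 1.07 ± 0.336 in TFc. In HFc nearly all counts were thus of *Crct1*, and in KFc and TFc most were of *Lce1g*, with *Lce1h* and *Lce1f* adding to the sum mainly in KFc. Both *Lce1g* and *Crct1* had counts in every cultured library, and the organs differed in which of them predominated.

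**Figure D2:**
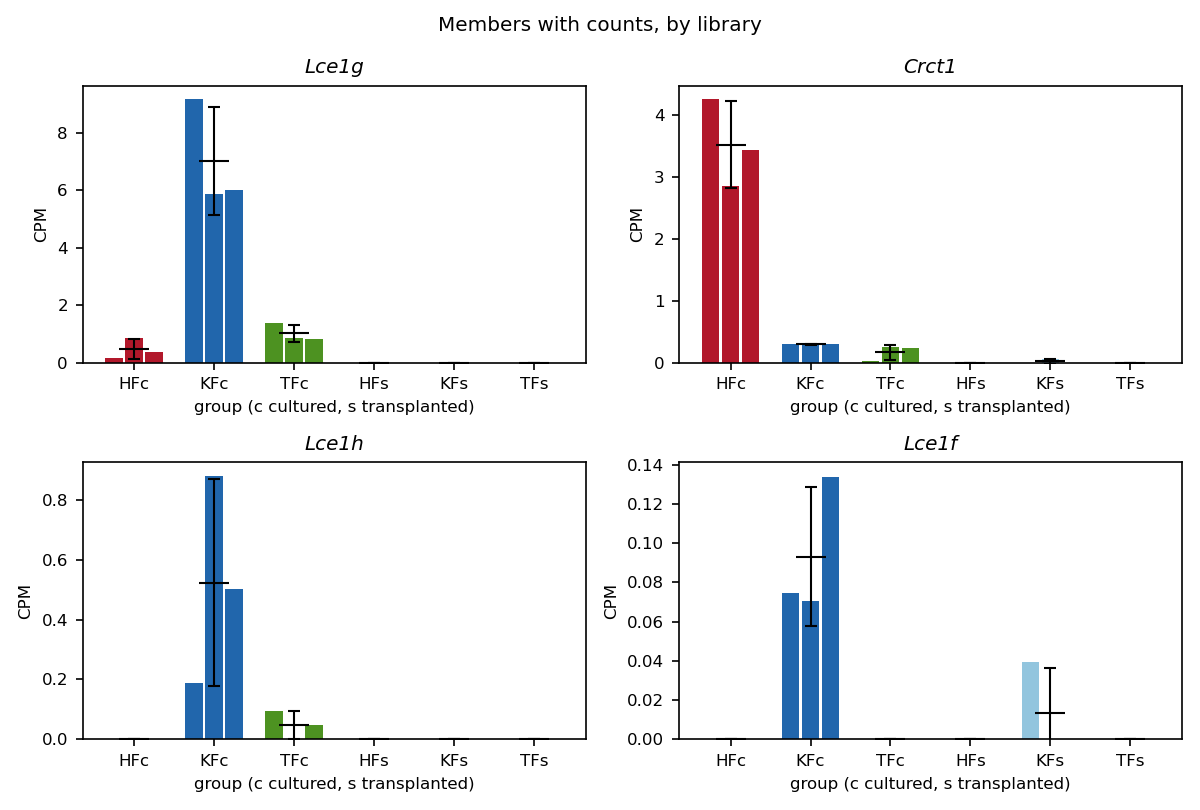
CPM of the 4 genes with counts in each library (bars, 3 per group), with the group mean and SD (black line and whiskers). *Lce1g* and *Lce1h* were highest in KFc and *Crct1* in HFc, while the bars of HFs and TFs are all at 0 and those of KFs at or under the floor of 3 counts.

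*Lce1g* had 245, 166 and 179 counts in KFc, 44, 21 and 18 in TFc, and 5, 27 and 8 in HFc. It was above the floor in all 9 cultured libraries and had no count in any of the 9 transplanted ones. The level was 7.0 ± 1.87 CPM (SD, n = 3) in KFc, 1.02 ± 0.297 in TFc and 0.467 ± 0.351 in HFc. KFc stood above both other groups without overlap, whereas HFc and TFc overlapped, with HFc replicate 2 inside the range of TFc.

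The 3 organs in culture were set against each other by the quasi-likelihood test of edgeR, and p-values were adjusted (Benjamini-Hochberg) over the 16577 genes that passed the filter on low counts. The genes had been listed with results of these libraries known, the cultured ones included, so these tests are not independent of that choice. *Lce1g* was higher in KFc than in TFc by a log2 fold change of 2.82 (SE 0.53, edgeR adjusted p = 0.0027). It was lower in HFc than in KFc, with a log2 fold change of -3.78 (SE 0.57, edgeR adjusted p = 0.000821). Between HFc and TFc the log2 fold change of *Lce1g* was -0.96 (SE 0.55, edgeR adjusted p = 0.194), which did not pass the threshold of 0.05. Without HFc replicate 2 it was -1.78 (edgeR adjusted p = 0.0304), so this call rested on 1 library.

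The sum of the marker genes of macrophages stood in the same order as *Lce1g* among the cultured groups, but not every marker did. *Ptprc*, for example, had 5.07 to 5.16 CPM in HFc and 4.00 to 5.64 in TFc. The summed level of 8 such markers was 84.4 to 98.3 CPM in HFc, 183 to 216 in TFc and 423 to 448 in KFc. *Csf1r* and *Lyz2* were among them, and none of the 8 was at 0 throughout a cultured group. After transplantation, with *Lce1g* at 0, the same markers summed to 79.8 to 134 CPM in HFs, 13.3 to 124 in KFs and 35.0 to 43.8 in TFs. The value of 13.3 is that of KFs replicate 3, which had 2.91 CPM of *Lyz2* against 85.8 and 64.1 in KFs replicates 1 and 2. The HFs and HFc ranges of the macrophage sum overlapped. The part of such cells in the level of *Lce1g* was not tested.

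*Crct1* had 123, 90 and 74 counts in HFc, 8, 8 and 9 in KFc, and 1, 6 and 5 in TFc. In transplanted cells it had no count in HFs or TFs, and 0, 2 and 0 counts in KFs. The level was 3.52 ± 0.703 CPM (SD, n = 3) in HFc, 0.294 ± 0.0107 in KFc and 0.17 ± 0.121 in TFc. All HFc libraries lay far above those of the other organs, and the order of KFc and TFc was held by small counts near the floor.

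*Crct1* was higher in HFc than in TFc by a log2 fold change of 4.54 (SE 0.73, edgeR adjusted p = 0.00037) and higher in HFc than in KFc by 3.65 (SE 0.68, edgeR adjusted p = 0.00176). Between KFc and TFc its log2 fold change was 0.89 (SE 0.72, edgeR adjusted p = 0.368), which did not pass. *Crct1* passed the filter on low counts through HFc, the group where it was high, and it had been listed with these libraries known, so these p-values are no independent support for the difference.

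Several mesothelial genes were high in HFc as *Crct1* was. A list of 8 such genes, *Msln*, *Upk3b*, *Upk1b*, *Lrrn4*, *Wt1*, *Krt19*, *Gpm6a* and *Bnc1*, was made after their values had been seen. It summed to 221 to 233 CPM in HFc, 34.3 to 37.4 in KFc and 5.06 to 5.52 in TFc, with 5 of the 8 at 0 in all TFc libraries. Of the 8 genes, 7 were higher and none lower in HFc than in TFc, where 20.9% and 21% of all genes tested were. In HFc against KFc 5 were higher and 1 lower, beside 15.1% and 14% of all genes tested. Since the list was made from these values, its counts describe the choice and are no independent result. *Upk3b*, for example, had 2993, 3245 and 2254 counts in HFc and 13, 18 and 21 in KFc. *Wt1* went the other way, with 30, 35 and 20 counts in HFc and 574, 702 and 695 in KFc, and *Krt19* had 82, 94 and 44 counts in HFc and 186, 116 and 221 in KFc.

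In HFs, where *Crct1* was at 0, the mesothelial sum was 5.86 to 14.1 CPM. In KFs it was 57.1 to 64.2 CPM, most of it from *Wt1* (mean 45.4 CPM) and *Krt19* (342, 489 and 215 counts), the genes that did not follow *Crct1*, while *Upk1b* had a mean of 4.16 CPM in KFc and 0.0904 in KFs. The part of mesothelial cells in the level of *Crct1* was not tested.

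**Figure D3:**
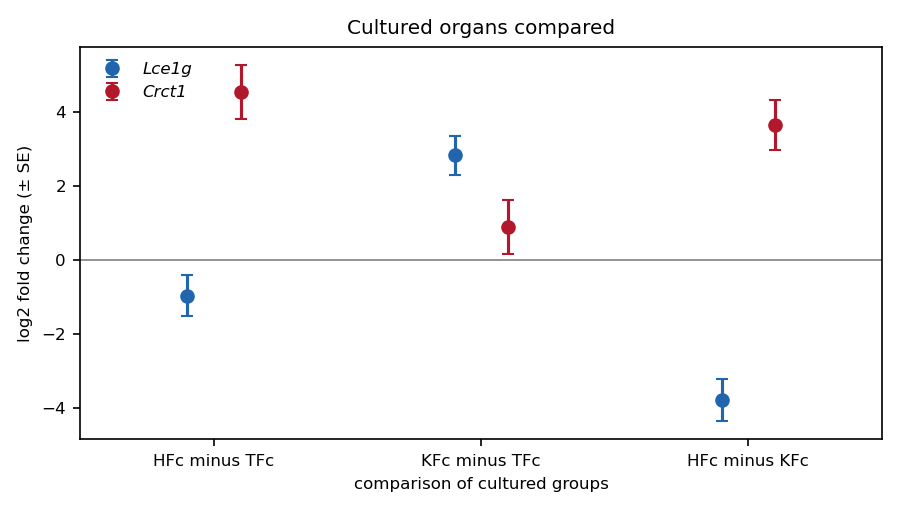
Log2 fold change of *Lce1g* and *Crct1* between each pair of cultured groups, with the standard error of the edgeR fit (n = 3 libraries per group). *Lce1g* was 2.82 higher in KFc than in TFc and *Crct1* 4.54 higher in HFc than in TFc, and the 2 genes lay on opposite sides of 0 between HFc and KFc.

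*Lce1h* had 5, 25 and 15 counts in KFc, 3, 0 and 1 in TFc, and none in HFc or in any transplanted library. Its mean of 0.524 CPM in KFc was at least 4.64-fold higher than in HFc, against a floor of 3 counts per library. It did not pass the filter on low counts. With no filter, and 24956 genes tested, it was lower in HFc than in KFc (log2 fold change -6.76, SE 1.74, edgeR adjusted p = 0.0214), a fold change that depends on the prior count because HFc is at 0, and KFc against TFc gave 3.39 (SE 1.32, edgeR adjusted p = 0.103). *Lce1h* passed the filter and the threshold for KFc against TFc in the fits without KFc replicate 1 (3.73, edgeR adjusted p = 0.0492) and without KFs replicate 3 (3.36, edgeR adjusted p = 0.0308), so this call depends on the libraries in the fit. KFs replicate 3 belongs to neither group compared. In these fits *Lce1h* passed the filter through KFc, the group where it was high, so the p-values are no independent support for the difference.

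*Lce1f* had 2, 2 and 4 counts in KFc, 1, 0 and 0 in KFs, and none elsewhere. Only KFc replicate 3 was above the floor. Of the windows of 75 bases in *Lce1f*, 4.59% were found in another gene, all of them in *Lce1a1*, which was at 0.

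Within culture, 1 of the 9 genes was higher in HFc than in TFc with no overlap between the groups, where 24.1% of the genes tested were, and none was lower, where 38.9% were. In KFc against TFc it was 4 of 9, against 25.4%. In HFc against KFc, 1 was higher, against 23.1%, and 3 were lower, against 31%, and 5 or 6 of the 9 were at 0 in both groups in each of these pairs. By adjusted p, 1 gene was higher in HFc than in TFc and 1 in KFc than in TFc, where 20.9% and 17.8% of the genes tested were (41.9% in either direction for HFc and TFc), and in HFc against KFc 1 was higher, against 15.1%, and 1 lower, against 14%. With 2 of the listed genes in the test, these shares say little on the list.

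Compared per length of exon, which allows genes to be set side by side, *Lce1g* in KFc had the highest level with 7.57 CPM per kilobase. *Crct1* in HFc followed with 4.44, and *Lce1g* in TFc with 1.11. *Lce1g* in HFc had 0.505 CPM per kilobase, and *Crct1* 0.372 in KFc and 0.215 in TFc.

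The fall on transplantation is the contrast that chose the genes, and its size is given without a test. Against a floor of 3 counts per library, *Lce1g* was at least 59.5-fold lower in KFs than in KFc, at least 6.86-fold lower in TFs than in TFc and at least 3.63-fold lower in HFs than in HFc. *Crct1* was at least 27.3-fold lower in HFs than in HFc, and *Lce1h* at least 4.45-fold lower in KFs than in KFc. The bounds follow the level in culture, since a gene that starts lower can be seen to fall less.

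Of the 9 genes, 2 were lower without overlap in HFs than in HFc, where 36.3% of the genes tested were, 4 in KFs, against 22.3%, and 2 in TFs, against 30.7%. All others were at 0 in both groups or, for *Lce1h* in TFs against TFc, at 0 to 3 counts. *Lce1f* counts among the 4 in KFs with 1, 0 and 0 counts against 2, 2 and 4. None of the 9 was higher in a transplanted group, where in TFs, for example, 29.6% of the genes tested were. The 3 comparisons use different libraries.

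Most markers of the proximal tubule, a part of the host kidney, were higher after transplantation. All 8 of the list rose in HFs and in TFs, and 7 in KFs, where 18.3%, 11% and 14.7% of all genes tested rose. *Lrp2* had 22.6 to 63.6 CPM in KFs and 92.9 to 99.5 in KFc, so it was lower after transplantation of kidney cells. *Kap* had no count in any cultured library and 347, 6721 and 148 counts in HFs, 414, 134 and 30 in KFs, and 418, 480 and 589 in TFs. The list summed to 63.9 to 990.5 CPM in HFs, 50.8 to 107 in KFs and 108 to 302 in TFs, beside 18.6 to 19.2 in HFc, 96.4 to 103 in KFc and 14.8 to 17.3 in TFc. The part of such RNA in the fall of the listed genes was not tested.

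The rest of the epidermal differentiation complex had its own pattern in culture. The complex was read as 54 other genes, of which 16 passed the filter on low counts, 9 of them S100 genes, which encode small calcium-binding proteins used in many cell types. Of the 7 others tested, 4 were higher and none lower in HFc than in TFc, 5 higher and none lower in KFc than in TFc, and 2 higher and 2 lower in HFc than in KFc. Of all genes tested, 20.9% were higher and 21% lower in HFc than in TFc, 17.8% and 18.5% in KFc than in TFc, and 15.1% and 14% in HFc than in KFc. Over all 16 the median log2 fold change was 1.13 for HFc against TFc and 0.59 for KFc against TFc, beside -0.01 and -0.04 over all genes tested. The count of 16 tested is of genes with enough counts and not of the complex as a whole, in which 27 to 33 of the 54 were at 0 throughout a cultured group.

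Other genes of the complex also fell on transplantation. Of the 16 tested, 1 rose and 10 fell in heart cells, 2 rose and 7 fell in kidney cells, and 1 rose and 5 fell in tail cells. S100 genes made up 7, 4 and 4 of those that fell. Such a call needs an adjusted p under 0.05 and a log2 change of more than 1 in size, and 18.3% of all genes tested rose and 9.33% fell in heart cells, 14.7% and 7.99% in kidney cells, and 11% and 5.53% in tail cells.

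*Ivl*, which encodes involucrin, had 246, 201 and 190 counts in KFc, 63, 76 and 83 in HFc, and 6, 0 and 6 in TFc. It was higher than in TFc both in HFc (log2 fold change 4.30, SE 0.75, edgeR adjusted p = 0.000416) and in KFc (5.63, SE 0.77, edgeR adjusted p = 8.11e-05). It fell on transplantation in heart cells (-4.19, SE 0.77, edgeR adjusted p = 0.000402) and kidney cells (-3.36, SE 0.65, edgeR adjusted p = 0.000828), with 6, 0 and 4 counts in HFs and 12, 24 and 23 in KFs. *Ivl* therefore kept some counts in KFs, where *Lce1g* had none.

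*Kprp*, which encodes the keratinocyte proline-rich protein and lies 74.9 kb from the start of *Lce1g*, was chosen after its values had been seen. It had 379, 353 and 443 counts in KFc, 1, 6 and 0 in HFc, and none in TFc. KFc was above HFc (log2 fold change of HFc against KFc -7.21, SE 0.77, edgeR adjusted p = 8.5e-05), and in KFs 2, 0 and 0 counts were left. *Kprp* passed the filter on low counts through KFc, the group where it was high, so this p-value is no independent support for the difference. Like *Lce1g* and *Lce1h* it was highest in KFc, and its level there was 13.8 ± 1.24 CPM (SD, n = 3).

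Among the Sprr genes, whose proteins crosslink the envelope, *Sprr3* had 78, 128 and 61 counts in HFc, 5, 5 and 11 in KFc, and 1, 0 and 0 in TFc. It was higher in HFc than in KFc (log2 fold change 3.78, SE 0.72, edgeR adjusted p = 0.000954), as *Crct1* was. *Sprr3* passed the filter on low counts through HFc, the group where it was high, so this p-value is no independent support for the difference. *Sprr2a2* had 14, 24 and 26 counts in HFc and at most 2 in the other cultures, but it overlaps *Sprr2a1* in the annotation and its counts are uncertain.

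*Sprr1a* had 159, 198 and 149 counts in HFc and 131, 167 and 123 in KFc, but none in TFc. It stayed present under the capsule, with 54, 69 and 36 counts in HFs, 119, 150 and 2496 in KFs, and 6, 3 and 7 in TFs. The high value is that of KFs replicate 3. The log2 fold change of KFs against KFc was 2.89 (SE 0.90, edgeR adjusted p = 0.0168) with this library and -0.0788 (SE 0.32, edgeR adjusted p = 0.858) without it. *Sprr2k* was low in culture, with 1, 2 and 3 counts in KFc, and had 21, 80 and 14 in KFs (log2 fold change 4.16, SE 1.18, edgeR adjusted p = 0.012). Without KFs replicate 2 it was 3.21 (edgeR adjusted p = 0.0506) and without KFc replicate 1 it was 3.89 (edgeR adjusted p = 0.0503), so the call of *Sprr2k* rested on single libraries. *Sprr2k* also passed the filter through KFs, the group where it was high, so its p-values are no independent support. Not all cornified envelope genes thus followed *Lce1g* and *Crct1* to 0 after transplantation.

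**Figure D4:**
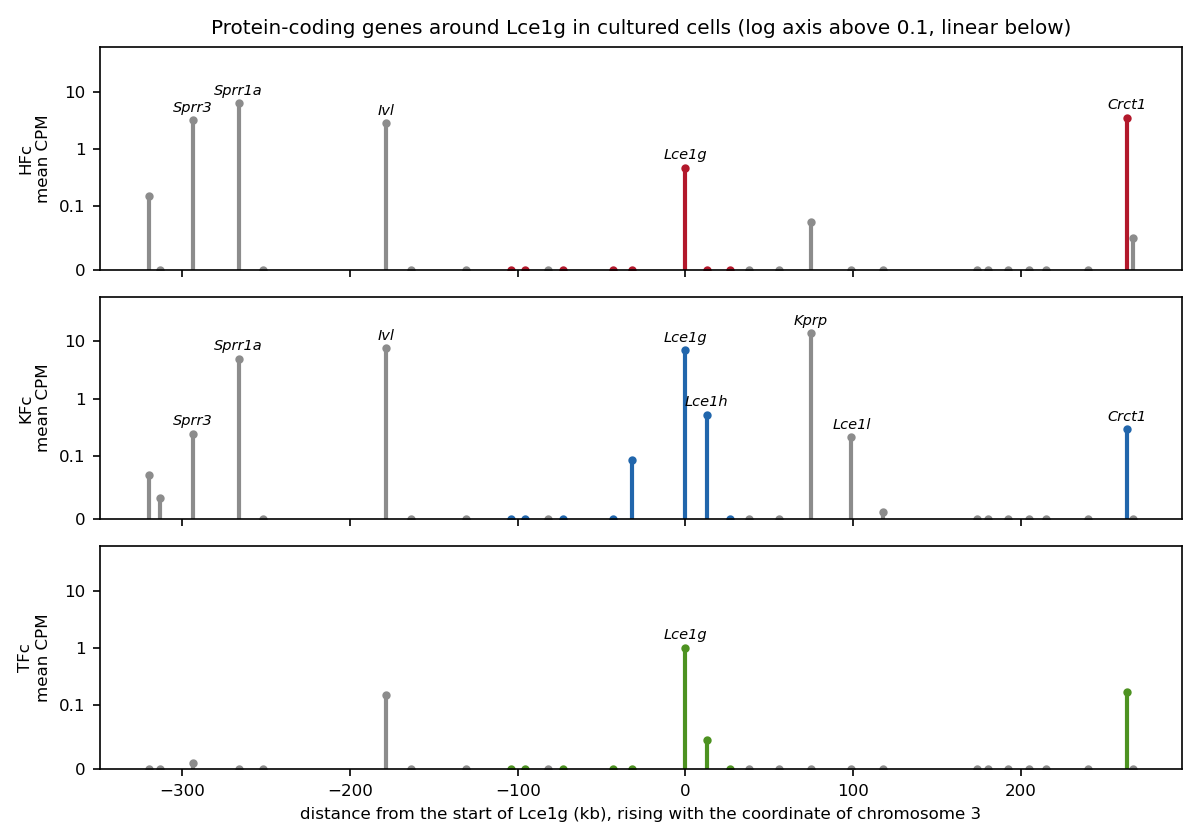
Mean CPM of the protein-coding genes around *Lce1g* in HFc, KFc and TFc (3 libraries each), by distance from the start of *Lce1g*; listed genes are coloured, other genes grey, and the vertical axis is logarithmic above 0.1 CPM and linear below. In KFc *Lce1g*, *Lce1h* and *Kprp* stand above neighbours at 0, in HFc *Crct1* and *Sprr3* are at their highest, and *Sprr1a* and *Ivl* are present in both, at 4.97 and 7.55 CPM in KFc and 6.23 and 2.82 in HFc.

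*Lor*, which encodes loricrin, did not pass the filter, with 0 to 8 counts in any library. The other Lce genes outside the list were near 0 too. *Lce1l* had 6, 0 and 12 counts in KFc and none elsewhere. *Flg*, which encodes filaggrin, was not matched and was not analysed here.

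Keratinocytes are the cells in which these genes are known, so their other markers were read in every library. *Krt1*, *Krt2*, *Dsg1a* and *Klk5* were at 0 in all 18 libraries. *Krt5* and *Krt14*, the keratins of basal keratinocytes, had at most 2 and 6 counts in any cultured library, and *Trp63*, a transcription factor that keratinocytes need, had 0 to 26. *Krt10* had 11 to 57 counts in culture and *Sfn* 52 to 169. *Krt1*, *Krt5* and *Krt14* were thus at or near 0 in culture, while *Krt10* had counts in every library, such as 57, 40 and 29 in TFc.

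The summed level of 30 keratinocyte markers was 14.1 to 18.1 CPM in HFc, 17.8 to 20.95 in KFc and 19.8 to 21.3 in TFc. The ranges of KFc and TFc overlapped. In transplanted cells the range was 7.43 to 16.4 CPM in HFs, 8.91 to 45.2 in KFs and 12.3 to 16.8 in TFs, the highest value being that of KFs replicate 3. Of the 30 markers, 16 passed the filter, and HFc had 3 higher and 5 lower than TFc, KFc had 3 of each against TFc, and HFc had 1 higher and 5 lower than KFc, where 20.9% and 21%, 17.8% and 18.5%, and 15.1% and 14% of all genes tested were. On transplantation 6 of the 16 rose and 2 fell in heart cells, 2 rose and 5 fell in kidney cells, and 3 rose and 5 fell in tail cells. Of all genes tested, 18.3% rose and 9.33% fell in heart cells, 14.7% and 7.99% in kidney cells, and 11% and 5.53% in tail cells. The markers that changed went both ways. *Cdh1*, the epithelial cadherin, was higher in KFc than in TFc (log2 fold change 7.08, SE 1.38, edgeR adjusted p = 0.000917), and *Pkp1*, a protein of desmosomes, was higher in HFc than in TFc (3.05, SE 0.85, edgeR adjusted p = 0.00889).

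Among the markers that were lower in HFc than in TFc were genes of the skin barrier, named here after their values had been seen. *Spink5*, which encodes an inhibitor of skin proteases, had 3, 0 and 0 counts in HFc, 6, 6 and 4 in KFc, and 107, 82 and 84 in TFc. *Cdsn*, which encodes corneodesmosin, had 6, 0 and 0 counts in HFc, 64, 76 and 63 in KFc, and 97, 76 and 84 in TFc. *Grhl1*, a transcription factor of the epidermis, had 2, 4 and 9 counts in HFc, 88, 70 and 71 in KFc, and 118, 115 and 57 in TFc. All 3 were lowest in HFc among the cultures, which follows from how they were picked. *Casp14* and *Grhl3*, of the same list, went the other way. *Casp14* had 48, 52 and 26 counts in HFc and 10, 15 and 11 in TFc, and *Grhl3* had 13, 7 and 9 in HFc and 1, 0 and 1 in TFc. The part of keratinocytes in the levels of the listed genes was not tested.

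**Figure D5:**
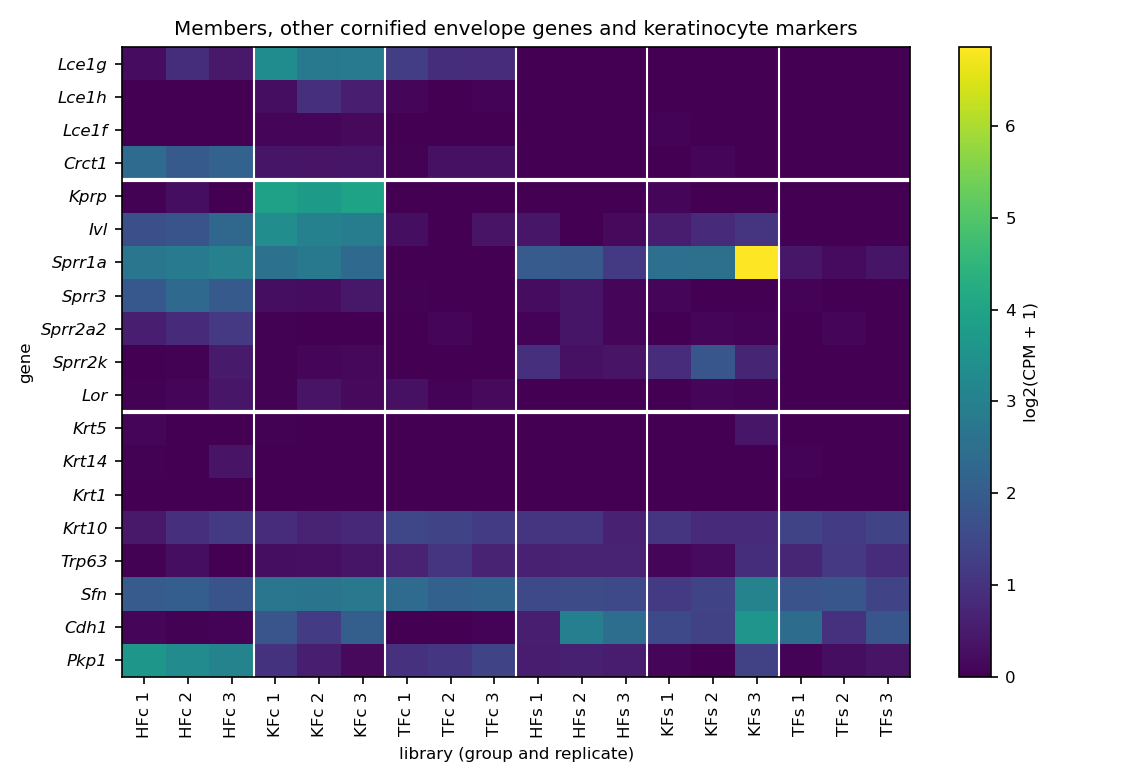
Level of the 4 listed genes with counts (top), other cornified envelope genes (middle) and keratinocyte markers (bottom) in each of the 18 libraries, as log2(CPM + 1) by colour. The listed genes are dark in all transplanted libraries, *Krt5*, *Krt14* and *Krt1* are dark nearly throughout, and KFs 3 has the brightest cell, *Sprr1a*.

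Genes that p53 switches on were read as a list of 28, because stressed cells in culture can use them. Of these, 12 rose above and 2 fell below TFc in HFc, 17 and 1 did so in KFc, and HFc had 2 higher and 9 lower than KFc, where 20.9% and 21%, 17.8% and 18.5%, and 15.1% and 14% of all genes tested did. The median log2 fold change of KFc against TFc was 0.52 over the list and -0.04 over all genes tested. *Ccng1*, *Mdm2* and *Cdkn1a*, the 3 most abundant of the list, were higher in KFc than in TFc by log2 fold changes of 1.36 (SE 0.09), 1.23 (SE 0.20) and 1.17 (SE 0.08). The summed level of the list was 3954 to 4067 CPM in KFc, 2837 to 2884 in HFc and 2207 to 2264 in TFc. The sum of the listed genes stood in this order too, but neither *Lce1g* nor *Crct1* alone did, and the part of p53 in their levels was not tested.

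On transplantation, 1 of the 28 p53 targets rose and 10 fell in heart cells, 0 and 6 in kidney cells and 1 and 2 in tail cells. The shares of all genes tested that rose and fell were 18.3% and 9.33% in heart, 14.7% and 7.99% in kidney and 11% and 5.53% in tail cells. Without HFs replicate 3, 7 of the list were called in heart cells in place of 11, and without KFs replicate 3, 9 in kidney cells in place of 6. *Ccng1*, the most abundant of the list, went from a mean of 970 CPM in HFc to 312 in HFs, where it had 6388, 7821 and 8006 counts. The part of p53 in the fall of the listed genes was not tested.

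Transcription factors named as regulators of cornified envelope genes were read as a list of 13. In heart cells 7 rose and none fell on transplantation, in kidney cells 3 rose and 1 fell, and in tail cells 3 rose and none fell, beside the same shares of all genes as for the p53 targets. *Fos*, a part of AP-1, was higher in HFs than in HFc by a log2 fold change of 4.26 (SE 0.25, edgeR adjusted p = 5.48e-09), and it rose by 3.31 in kidney and 3.66 in tail cells. In culture, *Jun* was lower in HFc and in KFc than in TFc, by log2 fold changes of -0.94 (SE 0.15) and -0.86 (SE 0.15), and *Fosl2* was lower in HFc than in TFc (-0.61, SE 0.11). The part of these factors in the levels of the listed genes was not tested.

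Targets of Nrf2 and of the aryl hydrocarbon receptor, which respond to oxidants and foreign compounds, were read as a list of 12. Of these, HFc had 2 higher and 7 lower than TFc, KFc had 6 higher and 4 lower than TFc, and HFc had 0 higher and 5 lower than KFc, where 20.9% and 21%, 17.8% and 18.5%, and 15.1% and 14% of all genes tested were. *Cyp1b1* was higher than in TFc in HFc (log2 fold change 1.36, SE 0.23) and in KFc (1.36, SE 0.23). *Txnrd1* was higher in KFc than in TFc (1.35, SE 0.13) and *Hmox1* lower in HFc than in TFc (-2.05, SE 0.14), so the list did not move as a whole.

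The genes whose pattern was most like the mean log2(CPM + 1) of the 9 genes were found over 18 libraries, as a description of libraries that fall into cultured and transplanted sets. Among protein-coding genes *Arl5a* (Pearson's r 0.993), *Ifi27l2b* (0.986) and *Msrb1* (0.982) were nearest, followed by *Fez2*, *Prkar1a*, *Dctn6*, *Tpst2* and *Nkiras2*. *Ifi27l2b* had a mean of 7.74 CPM in HFc, 14.8 in KFc and 2.30 in TFc, and at most 0.237 in a transplanted group. Over the 9 cultured libraries alone the nearest were *Pmaip1* (0.998), *Ehd1* (0.998), *Ddit3* (0.997), *Tbc1d1*, *Apbb2*, *Kif1a*, *Cadm4* and *Cnn2*. *Pmaip1*, a p53 target that promotes cell death, had 43.2 CPM in HFc, 126 in KFc and 13.5 in TFc. The mean of the 9 genes follows *Lce1g* and *Crct1*, since the other genes add little to it.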

How the data were processed

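Libraries were made with a stranded SMARTer kit for small amounts of total RNA (v2-Pico) and sequenced to 75 bases. The authors aligned reads with Bowtie and quantified genes with RSEM, and deposited 1 table of expected counts per gene, which holds whole numbers here. No column belonged to an unnamed sample. The labels list the build mm9 and the study's methods GRCm38, so positions were taken from GENCODE release 21 (GRCm38) and not from the table, and symbols were found for 37607 of 38924 gene IDs.

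Counts were tested in R 4.3.3 with edgeR 4.0.16 (filter on low counts, TMM scaling, quasi-likelihood test, 1 mean per group, all 18 libraries, adjusted p under 0.05). DESeq2 1.42.0, limma 3.58.1, Python 3.11.15, numpy 2.4.6, pandas 2.3.3 and matplotlib 3.10.9 were also used. On data simulated for HFc against TFc (14679 genes tested), 99 of 100 changes of 4-fold and 54 of 100 of 2-fold were found, with 9 false calls. The changes were placed only in genes above a minimum mean count, with the same spread for all genes. These shares therefore do not apply to genes of few counts, such as *Lce1h* and *Lce1f*. Library totals of 17927838 to 32245168 set the floor of 3 counts.

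The listed genes and the gene lists were chosen with earlier results of these data known. Named genes were the listed genes, the Lce and Sprr genes that passed the filter with *Lor*, *Flg* and *Ivl*, the 3 genes of highest mean CPM in each other list with 5 keratinocyte genes, and the 8 genes most like the mean of the listed genes. *Kprp*, *Lce1l*, *Spink5*, *Cdsn*, *Grhl1*, *Casp14*, *Grhl3* and the mesothelial list were added after their values were seen. Alternatives were other scaling, other filters, DESeq2, a replicate block, other thresholds, fewer groups in the fit and each library left out. Same-numbered libraries did not deviate together (correlations of -0.0479 to 0.045), so the numbers were not taken as pairs.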

Additional observations from a re-analysis of the deposited data

Results flagged for a closer look

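None of the listed genes entered this test, since their fall on transplantation is what chose them. For the other genes named, the change on transplantation was compared between organs with edgeR's test of the difference between the 2 changes, adjusted over all genes tested. Apart from *Sprr1a* for heart minus tail, each difference below passed, with an edgeR adjusted p of at most 0.0368.

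*Sprr1a* moved in opposite directions in heart and tail cells. All 3 HFs libraries lay below all HFc libraries, while the TFs libraries, with 6, 3 and 7 counts, lay above the TFc libraries, which had 0 counts each. The difference of the changes, heart minus tail, was -7.07 on the log2 scale (SE 3.39), and it did not pass the edgeR test (adjusted p = 0.152). Heart minus kidney it was -4.27 (SE 1.27, edgeR adjusted p = 0.0248), with KFs replicate 3, which had 2496 counts of *Sprr1a* against 119 and 150 in the other KFs libraries. Without that library it was -1.29 (SE 0.44, edgeR adjusted p = 0.0343), and heart minus tail was -7.04 (SE 1.03, edgeR adjusted p = 0.00018), which passed.

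*Cdh1*, the epithelial cadherin, had a difference of 5.38 (SE 1.42) for heart minus kidney and -6.28 (SE 1.68) for kidney minus tail. Its rise in HFs and TFs came with a rise of all 8 proximal tubule markers there. In KFs 7 of the 8 rose too, while *Cdh1* had 47, 48 and 238 counts and overlapped with KFc. *Kap* had no count in culture and 347, 6721 and 148 counts in HFs, where *Cdh1* had 9, 168 and 133. The part of such RNA in the level of *Cdh1* was not tested. *Pkp1*, a protein of desmosomes, had -4.0 (SE 1.28) for heart minus kidney, but its counts in KFs were 2, 0 and 33, the last being KFs replicate 3. Without that library the difference of *Pkp1* was -0.46 (SE 2.19, edgeR adjusted p = 0.911) and did not pass.

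Among p53 targets, *Cdkn1a* differed by 0.67 (SE 0.12) for heart minus kidney and 0.42 (SE 0.12) for heart minus tail, and *Ccng1* by -0.54 (SE 0.12) for heart minus tail and -0.43 (SE 0.12) for kidney minus tail. Both fell in each organ, so the organs differed in size and not in direction.

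Among the transcription factors, *Fos* differed by 0.95 (SE 0.32) for heart minus kidney, and *Jun* by 0.67 (SE 0.22) for heart minus tail and 1.08 (SE 0.22) for kidney minus tail. Of the targets of Nrf2 and the aryl hydrocarbon receptor, *Hmox1* differed by 1.47 (SE 0.20) for heart minus kidney and 1.87 (SE 0.20) for heart minus tail, and *Cyp1b1* by 1.32 (SE 0.33) for heart minus tail. The explanations of these differences were not tested. Without KFs replicate 3, an alternative chosen after seeing the data, all of these passed with the same sign, *Pkp1* alone among the differences given here did not pass, and *Sprr1a* for heart minus tail passed only then.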

How the results depend on the processing

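Of the listed genes, 1 was called for HFc against TFc (1 to 2 with each library left out, 2 without HFc replicate 2), 1 for KFc against TFc (1 to 2, and 2 without KFc replicate 1 or, chosen after seeing the data, without KFs replicate 3) and 2 for HFc against KFc (2 to 3). With the replicate block these counts were 1, 1 and 2. The summed level in HFc was 0.467 CPM without *Crct1*, in place of 3.98. At an adjusted p threshold of 0.01 the keratinocyte calls on transplantation went from 8 to 5 in heart, 7 to 4 in kidney and 8 to 3 in tail cells, and in tail cells they ranged from 3 (without TFs replicate 3) to 8 with each library left out. With no limit on the fold change the p53 target calls went from 11 to 21, 6 to 18 and 3 to 20, and in heart cells they ranged from 7 to 10 with each library left out. *Sprr1a* in KFs against KFc ranged from -0.0788 (without KFs replicate 3) to 3.404 with each library left out, and with the replicate block it was 2.24 (edgeR adjusted p = 0.0882). The causes were not tested beyond the libraries, genes and thresholds each setting changes. Of the other values, 212 that answer a comparison and 769 of single genes were judged the same. A value was so judged if it kept its direction and side of the threshold, and a count of calls also if it changed moderately. Scaling by library size alone moved the median of all genes to -0.16 for HFc against TFc and 0.15 for KFs against KFc. Levels of a few counts limit *Lce1f* and *Lce1h*.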
